A study of Mus musculus with 2 samples.

Results

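The cadherins and catenins of mouse hair follicle melanocytes were followed in 8 genes of the 32285 in each count matrix: the cadherins Cdh1, Cdh2, Cdh3, Cdh11 and Cdh13 and the catenins Ctnna1, Ctnnd1 and Jup. They were named as a list, with no threshold on their values. They were read in melanocyte cells of 2 droplet libraries, defined by at least 1 UMI (unique molecular identifier, 1 counted transcript molecule) of Dct, fewer than 3 UMIs of Krt10 plus Krt14, less than 5% mitochondrial UMIs, and more than 10000 UMIs in the early-anagen library or more than 5000 in the bulb library. These limits kept 2785 of 11010 barcodes in early anagen and 3734 of 4327 in bulb. The keratin limit, on raw UMIs, acted unequally. It dropped 677 of the 3464 early-anagen cells that passed the UMI and mitochondrial limits, and 29 of 3774 in bulb.

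Cadherins are surface proteins that bind cadherins on neighbouring cells, and their tails hold catenins that stabilise them and tie them to actin. In skin, E-cadherin joins melanocytes to keratinocytes, whereas P-cadherin marks the hair germ and matrix epithelium among which follicle melanocytes lie. A switch from E-cadherin to N-cadherin is known from melanoma cells that leave the epidermis.

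Both libraries came from back skin of mice carrying Dct-rtTA and tetO-H2B-GFP, in which a doxycycline diet turns on a nuclear GFP under control of Dct, so that the sort itself selected cells by Dct activity. Early-anagen melanocyte stem cells (McSCs) came from mice depilated when 8 weeks old and taken after 4 days, when follicles were at anagen II, and the skin was dissociated with trypsin. Mature bulb melanocytes came from hair bulbs dissected from mice 5 weeks old at anagen VI, with no depilation recorded. They were dissociated with collagenase and dispase. Live GFP+ cells of 4 mice were pooled for each library, and the kits differed (Chromium 3′ v3 for early anagen and v2 for bulb). With 1 library for each condition there is no replicate check, and no test was possible. Condition, depilation, mouse age, dissociation, kit and depth cannot be told apart. Intervals given below are 95% intervals for counting error only, exact Poisson for levels, exact binomial (Clopper-Pearson) for shares of cells, and exact conditional binomial for ratios.

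The selected cells held a median of 24528 UMIs (10001 to 99743) in early anagen and 14286.5 (5003 to 46256) in bulb. All 8 melanocyte markers (Dct, Tyrp1, Tyr, Pmel, Mlana, Mitf, Sox10 and Kit) were above 100 CPM (UMIs of a gene scaled to a common total of 1000000 UMIs over the selected cells) in both, and defining markers of fibroblasts, endothelium and Schwann cells (Col1a1, Col3a1, Pecam1, Cdh5, Mbp, Sox2) were at 0 to 0.11 CPM. Dct is no evidence of its own here, since the sort and the selection both used it. Keratinocyte transcripts needed more care, since keratinocytes are rich in several members, and 10 keratinocyte markers were at 1.19 to 28.3 CPM in early anagen and 0 to 30.3 CPM in bulb. Krt10 and Krt14 are among them and were capped by the selection, but the ends of both ranges came from other genes. Of the early-anagen library 72 cells were keratin-high (at least 50 UMIs of Krt10 plus Krt14 and more than of Dct), none of them selected. By that definition the bulb library had 0 such cells, so 40 bulb cells with at least 50 UMIs of Krt5, Krt17, Perp, Sfn, Dsp and Lgals7 together, and more than of Dct, were used in their place (chosen after seeing the data). Of those 40 cells, 18 had passed the selection, and 26 selected bulb cells and 61 selected early-anagen cells held at least 10 UMIs of these 6 genes; results were also computed without them. The libraries shared 1 barcode.

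Of the 8 members, 6 were at least 2-fold lower in the bulb library, and 0 were at least 2-fold higher. Over all 8020 genes of at least 10 CPM in either library, 28.7% were at least 2-fold lower in bulb and 16.3% at least 2-fold higher. Of 19777 genes with any UMI, 46.4% were lower and 15.4% higher, with a gene at 0 in 1 library counted as past the limit. The median log2 ratio of all 8 members was -1.90, against -0.18 for the genes of at least 10 CPM and -0.42 for genes with a UMI in both libraries. The filter of 10 CPM kept 5 members, 4 of them at least 2-fold lower, and left out Cdh11, Cdh13 and Jup.

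**Figure D1:**
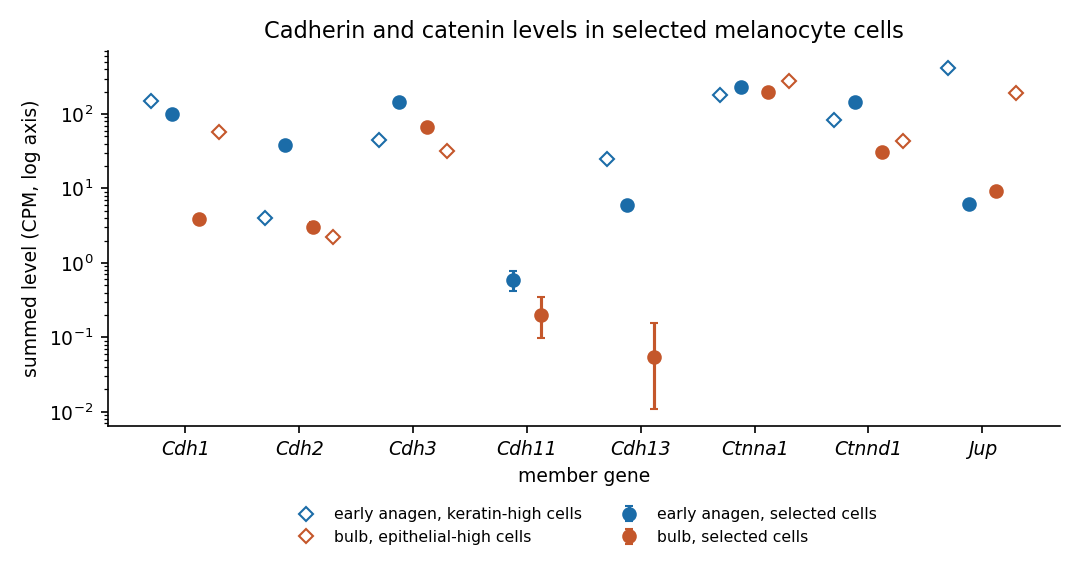
Summed level of each member (CPM, log axis) in the selected cells of the early-anagen and bulb libraries (filled circles, with 95% Poisson intervals, often smaller than the symbol) and in the keratin-high cells of early anagen and the epithelial-high cells of bulb (open diamonds, drawn where above 0). Cdh1, Cdh2, Cdh13 and Ctnnd1 sit far lower in bulb, while Ctnna1 stays near 200 CPM in both and Jup lies far below both sets of epithelial cells.

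Cdh1 encodes E-cadherin. It gave 7697 UMIs over the early-anagen cells, a level of 102 CPM (99.4 to 104), and 216 UMIs over the bulb cells, 3.87 CPM (3.37 to 4.42). The bulb level was 26.3-fold lower, a log2 ratio of -4.72 (-4.92 to -4.52), and stayed between -4.89 and -4.40 under 12 other ways of selecting, scaling or summing the cells. The difference was one of many cells and not of a few. With each cell thinned at random to 5000 UMIs, so that depth was equal, a Cdh1 UMI was found in 39.1% (37.2 to 40.9) of the early-anagen and 2.06% (1.63 to 2.57) of the bulb cells. At full depth these shares were 87.7% and 5.22%, with at most 19 UMIs in an early-anagen cell and 3 in a bulb cell. Without the cells of at least 10 epithelial UMIs, which held 6.02% of the Cdh1 UMIs in bulb, the log2 ratio was -4.79.

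Cdh2 encodes N-cadherin, the neural and mesenchymal classical cadherin. Its 2929 UMIs in early anagen gave 38.7 CPM (37.3 to 40.1) and its 170 UMIs in bulb 3.04 CPM (2.60 to 3.54). Thus Cdh2, like Cdh1, was lower in bulb, by 12.7-fold (log2 -3.67, -3.90 to -3.45). At 5000 UMIs, 16.2% (14.8 to 17.6) of the early-anagen and 1.23% (0.903 to 1.64) of the bulb cells had a Cdh2 UMI. Keratinocytes should lack the gene, and 1.39% of the 72 keratin-high cells (0.0352 to 7.5) and 0 of the 40 epithelial-high bulb cells (up to 8.81%) had one at the same depth. The early-anagen share lay above the interval of the keratin-high cells. In bulb the comparison decides nothing, since with 40 cells no share under 8.81% could be told apart. Of those 40 cells, 18 were also selected cells. Before thinning the keratin-high cells had a median of 35867 UMIs and the epithelial-high cells 11242.5.

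Cdh3 encodes P-cadherin, and its difference was the smallest among the 3 classical cadherins. Its level was 145 CPM (142 to 148) in early anagen, from 10980 UMIs, and 67.5 CPM (65.4 to 69.7) in bulb, from 3773 UMIs. The bulb level was 2.15-fold lower (log2 -1.10, -1.16 to -1.05), just past the 2-fold limit, and with TMM scaling the log2 ratio was -0.79 and short of that limit. A Cdh3 UMI was present in 51.0% (49.1 to 52.9) of the early-anagen and 29.4% (28.0 to 30.9) of the bulb cells at 5000 UMIs, and in 92.4% and 60.4% at full depth. Unlike Cdh1, Cdh3 was higher in the selected cells than in the epithelial cells of the same library. Those epithelial cells had 44.7 CPM in early anagen and 31.6 CPM (17.3 to 53.1), from 14 UMIs, in bulb. They were chosen by keratinocyte transcripts. Those of early anagen were rich in Krt1 (4933 CPM) and Krt5 (3520 CPM), and those of bulb in Tchh (9142 CPM) and Krt17 (6256 CPM). In the bulb set Krt1 was at 0 and Krt5 at 54.2 CPM, so these epithelial cells were unlike between the libraries. Whether they included hair germ or matrix epithelium was not tested, so the comparison does not extend to the follicle epithelium as a whole.

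At full depth, then, 5.22% of bulb melanocytes had a UMI of Cdh1, 4.15% of Cdh2 and 60.4% of Cdh3. Cdh1 and Cdh3 lie on the same strand of chromosome 8 (chr8:106603351-106670246 and chr8:106510891-106557297, both plus strand, GRCm38 with GENCODE M21 genes), 46053 bases apart with 2 annotated genes between them, 1 of them coding. Their differences between the libraries were 26.3-fold for Cdh1 and 2.15-fold for Cdh3. Cdh2 lies at chr18:16588877-16809246 on the minus strand and Ctnna1 at chr18:35118859-35254779 on the plus strand. No member overlapped another counted gene on its own strand.

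Cdh11, a mesenchymal cadherin, was scarcely detected. It gave 44 UMIs in early anagen (0.581 CPM, 0.422 to 0.780) and 11 in bulb (0.197 CPM, 0.0983 to 0.352). The log2 ratio was -1.56 with a wide interval (-2.66 to -0.59). Only 0.323% of the early-anagen and 0.161% of the bulb cells had a UMI at 5000 UMIs, shares within the intervals of the epithelial cells, where 0 of 72 and 0 of 40 had one.

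Cdh13 encodes T-cadherin, which is held to the membrane by a lipid anchor and lacks the tail that binds catenins. Its 453 UMIs in early anagen gave 5.98 CPM (5.44 to 6.56). In bulb there were 3 UMIs in 2 cells, 0.0537 CPM (0.0111 to 0.157), a ratio of 111 against early anagen and a log2 ratio of -6.80 (-9.08 to -5.24). The early-anagen cells with a UMI were a minority, 3.16% at 5000 UMIs (2.54 to 3.88) and 13.1% at full depth. Keratin-high cells of that library had more, 24.7 CPM (19.4 to 31.1) and 12.5% of cells (5.88 to 22.4), so the selected cells were at 24.2% of their level. For comparison Krt5 and Krt1, which mark those keratinocytes, were at 0.082% and 0.038% of theirs.

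**Figure D2:**
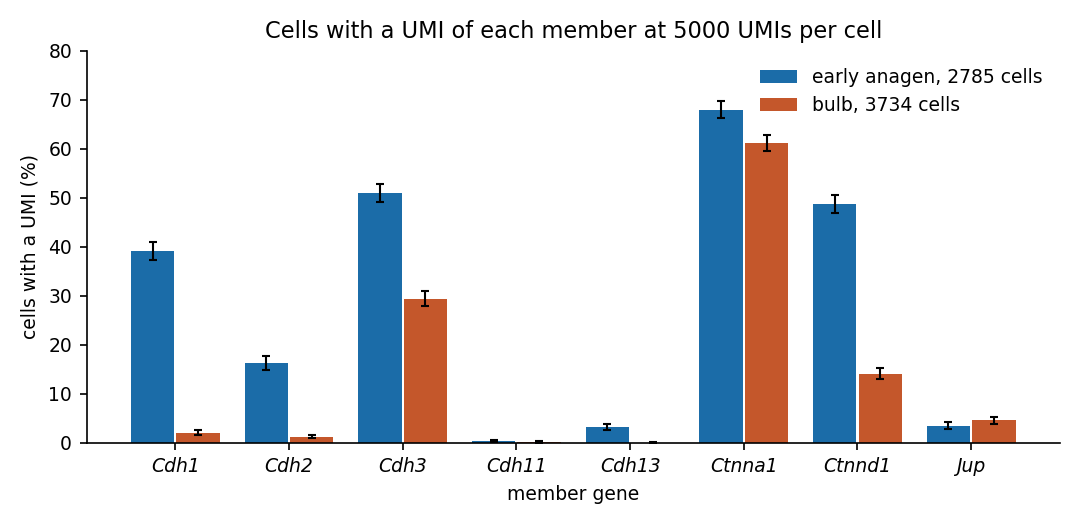
Share of selected cells with at least 1 UMI of each member (%, axis from 0) after every cell was thinned to 5000 UMIs, in the early-anagen and bulb libraries, with 95% Clopper-Pearson intervals. Cdh1 goes from 39.1% to 2.06% of cells, Cdh2 from 16.2% to 1.23% and Ctnnd1 from 48.7% to 14.1%, while Ctnna1 is at 68.0% and 61.2%.

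The catenins did not share 1 pattern. Ctnna1 encodes alpha-E-catenin, which links the cadherin complex to actin. It was present at 233 CPM (230 to 237) in early anagen, from 17666 UMIs, and 199 CPM (195 to 202) in bulb, from 11103 UMIs, 1.17-fold lower (log2 -0.23, -0.27 to -0.20). Relative to the median of the genes of at least 10 CPM this was -0.05, and with TMM scaling, which moved every log2 ratio by 0.31, it turned to 0.08, so no direction holds for Ctnna1. It was found in 68.0% (66.2 to 69.7) of the early-anagen and 61.2% (59.6 to 62.8) of the bulb cells at 5000 UMIs.

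Ctnnd1 encodes p120-catenin, which binds the cadherin tail near the membrane and keeps cadherins at the cell surface. Here the libraries stood apart, with 145 CPM (142 to 148) in early anagen, from 10973 UMIs, and 30.8 CPM (29.4 to 32.3) in bulb, from 1723 UMIs. That was 4.70-fold lower in bulb (log2 -2.23, -2.31 to -2.16), with a range of -2.40 to -1.92 over the alternatives. A UMI was present in 48.7% (46.9 to 50.6) of the early-anagen and 14.1% (13.0 to 15.3) of the bulb cells.

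Jup encodes plakoglobin, the catenin shared by adherens junctions and desmosomes. It was the one member higher in bulb, at 6.22 CPM (5.67 to 6.81) in early anagen from 471 UMIs and 9.36 CPM (8.57 to 10.2) in bulb from 523 UMIs, 1.5-fold (log2 0.59, 0.41 to 0.77). Some of these UMIs lay in cells with epithelial transcripts. The 26 selected bulb cells with at least 10 UMIs of the epithelial genes were at 132 CPM of Jup and held 9.56% of its UMIs in bulb, and the 61 such cells of early anagen held 7.43%. Without those cells the levels were 8.52 CPM in bulb and 5.88 in early anagen, and the log2 ratio was 0.54. Keratin-high cells held 418 CPM, and the selected early-anagen cells were at 1.49% of that, while the desmosomal gene Dsp was at 0.137%.

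The catenin beta-catenin (Ctnnb1), the usual partner of alpha-E-catenin and also the effector of WNT signalling, was not among the 8 genes but its difference lay between those of Ctnna1 and Ctnnd1, with 569 CPM in early anagen and 216 in bulb (2.63-fold lower, log2 -1.39, -1.42 to -1.37). The bulb cells kept near-equal Ctnna1 against lower Ctnnb1, Ctnnd1 and cadherin transcripts. Ctnnd1 lies at chr2:84600071-84650765 (minus) and Jup at chr11:100368958-100397763 (minus).

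Promoter sequence was held for 2 members, Ctnnd1 with 2 start sites and Jup with 1. They are shown because these catenins differed in opposite directions between the libraries. The distal Ctnnd1 start lies outside the GENCODE M21 span of the gene (chr2:84600071-84650765), and whether the counted transcripts used it was not tested. The 250 bases before each start, 5′ to 3′, from RefSeq on GRCm38.p6, read as follows.
Ctnnd1 distal start, chr2:84658978-84659227, minus strand: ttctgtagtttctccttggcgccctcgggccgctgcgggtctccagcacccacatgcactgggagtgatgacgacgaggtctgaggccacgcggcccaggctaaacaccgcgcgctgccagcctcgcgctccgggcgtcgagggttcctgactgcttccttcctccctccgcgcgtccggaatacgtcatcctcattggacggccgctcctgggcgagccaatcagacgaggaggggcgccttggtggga
Ctnnd1 proximal start, chr2:84650741-84650990, minus strand: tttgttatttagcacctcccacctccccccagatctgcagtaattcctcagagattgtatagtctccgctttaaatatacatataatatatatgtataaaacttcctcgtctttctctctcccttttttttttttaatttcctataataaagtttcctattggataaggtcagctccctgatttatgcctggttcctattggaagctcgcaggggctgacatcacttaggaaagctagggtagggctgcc
Jup start, chr11:100397791-100398040, minus strand: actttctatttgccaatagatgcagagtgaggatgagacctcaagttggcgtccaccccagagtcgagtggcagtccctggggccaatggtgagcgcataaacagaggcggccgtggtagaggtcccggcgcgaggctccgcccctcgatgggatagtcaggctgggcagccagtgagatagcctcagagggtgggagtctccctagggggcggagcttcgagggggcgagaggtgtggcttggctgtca
The E-box read by the Snai and Zeb repressors of cadherin genes (CAGGTG, or CACCTG on the other strand) and the E-box read by MITF (CACGTG, the same on both strands) were searched in the 300-base windows that run to 50 bases after each start. Capitals would mark a match, and the 3 windows held 0. Among 32851 windows of that length over all genes, 20.2% held CAGGTG and 7.15% CACGTG. The absence of these letters in 3 windows is a description of the windows and says nothing about the factors.

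Single cells of early anagen commonly held several cadherins. At 5000 UMIs, 860 of the 2785 early-anagen cells (30.9%, 29.2 to 32.6) had a UMI of at least 2 of the 5 cadherins, against 37 of the 3734 bulb cells (0.991%, 0.699 to 1.36). The mean number of cadherins detected was 1.10 and 0.329 per cell. In early anagen 710 cells had 0, 1215 had 1, 745 had 2, 108 had 3 and 7 had 4. In bulb 2542 cells (68.1%) had 0, 1155 had 1 and 37 had 2. Deeper sampling raises every such share: at 10000 UMIs 61.1% of early-anagen cells, and at full depth 90.2% of early-anagen and 5.97% of bulb cells, had 2 or more.

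**Figure D3:**
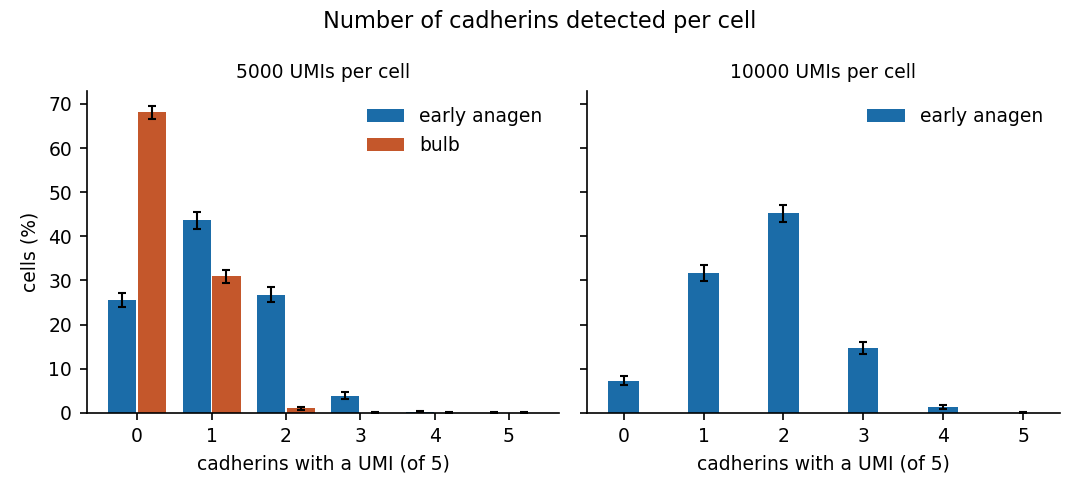
Share of cells (%) by the number of the 5 cadherins with a UMI, at 5000 UMIs per cell in both libraries (left) and at 10000 UMIs in early anagen (right), with 95% Clopper-Pearson intervals. In bulb 68.1% of cells show 0 cadherins and 0.991% show 2 or more, against 30.9% with 2 or more in early anagen.

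The combinations were led by Cdh1 with Cdh3. Of the early-anagen cells at 10000 UMIs, 901 had Cdh1 and Cdh3 without Cdh2, 367 had all of Cdh1, Cdh2 and Cdh3, 225 had Cdh2 and Cdh3, and 141 had Cdh1 and Cdh2. Cells with Cdh3 alone numbered 527, with Cdh1 alone 324 and with Cdh2 alone 87, and 213 had none of these 3. In bulb at 5000 UMIs, 1066 cells had Cdh3 alone, 51 Cdh1 alone, 39 Cdh2 alone, 26 Cdh1 with Cdh3 and 7 Cdh2 with Cdh3. At that depth 0 of 3734 had Cdh1 with Cdh2 and no Cdh3 (up to 0.0987%), and at full depth 8 bulb cells (0.214%) had UMIs of both Cdh1 and Cdh2.

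Co-detection of E-cadherin and N-cadherin transcripts depended on whether depth was equal. In early anagen Cdh2 was found in 29.3% of the cells with a Cdh1 UMI (27.2 to 31.5) and in 29.7% of those without (26.9 to 32.5) at 10000 UMIs. At full depth, where cells with more UMIs have more chance of both, the shares were 56.6% (54.6 to 58.5) and 41.2% (36.0 to 46.6). At 10000 UMIs Cdh3 was found in 73.2% of cells with Cdh1 (71.0 to 75.2) and 71.5% of those without (68.6 to 74.2). It was found in 72.2% of cells with Cdh2 (69.0 to 75.2) and 72.7% of those without (70.6 to 74.6). Cdh13 likewise was found in 6.52% and 6.37% of cells with and without Cdh1, and in 7.56% and 6.01% of cells with and without Cdh2. Every pair of intervals in the comparisons at 10000 UMIs overlapped, although a UMI that was missed at this depth would bring the shares closer together.

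Oca2 encodes a melanosomal membrane protein needed for pigment synthesis, and its transcript marks melanocytes that differentiate. The cadherins and catenins were therefore compared between cells with and without an Oca2 UMI. In early anagen, thinned to 10000 UMIs, 292 cells (10.5%, 9.37 to 11.7) were Oca2+ and 2493 Oca2-. Before thinning the groups had medians of 27409 and 24119 UMIs, and after selection 326.5 and 180 UMIs of Dct.

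Cdh1 was lower in the Oca2+ cells. It was at 76.7 CPM (67.0 to 87.4) there and at 111 CPM (107 to 115) without, a log2 ratio of -0.53 (-0.73 to -0.33) that ranged from -0.78 to -0.43 over 10 other settings. By Oca2 UMIs in the cell, Cdh1 was at 111 CPM in the 2493 cells with 0, 83.5 CPM (69.0 to 100.1) in 139 cells with 1, 71.3 CPM (55.8 to 89.8) in 101 cells with 2 to 3, and 69.2 CPM (48.5 to 95.8) in 52 cells with 4 or more. A Cdh1 UMI was present in 51.7% of Oca2+ cells (45.8 to 57.6) and 63.5% of Oca2- cells (61.5 to 65.4). Cdh1 thus stayed far above the bulb level in the early-anagen cells with the most Oca2.

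Cdh2 had a difference of the same sign, at 30.5 CPM (24.5 to 37.5) and 37.5 CPM (35.2 to 40.0), but the interval of its log2 ratio of -0.30 reached past 0 (-0.63 to 0.01). Cdh3 was at 160 CPM (146 to 175) with Oca2 and 151 CPM (146 to 156) without, a log2 ratio of 0.09 (-0.06 to 0.22) that does not tell them apart. Cdh13 was at 11.0 CPM from 32 UMIs and 6.78 CPM from 169 UMIs (log2 0.69, 0.10 to 1.24), and with a mitochondrial limit of 10% its log2 ratio was -0.02. Cdh11 had 2 and 11 UMIs, too few for a direction.

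Between Oca2+ and Oca2- cells the catenins differed little, apart from Jup. Ctnna1 was at 266 CPM (248 to 286) with Oca2 and 236 CPM (230 to 242) without, a log2 ratio of 0.17 (0.06 to 0.28). Ctnnd1 was at 160 CPM (145 to 175) and 145 CPM (140 to 149), a log2 ratio of 0.14 (0.00 to 0.28). In cells with 0, 1, 2 to 3 and 4 or more Oca2 UMIs, Ctnna1 was at 236, 259, 260 and 298 CPM (253 to 349 in the last). Ctnnd1 was at 145, 144, 165 and 190 CPM (155 to 232 in the last), a sign opposite to that of its bulb difference. In the same cells Jup was at 7.14, 0.719, 1.98 and 5.77 CPM, with no order by Oca2. Jup had 6 UMIs in Oca2+ cells (2.05 CPM) and 178 in Oca2- cells (7.14 CPM), a log2 ratio of -1.80 (-3.26 to -0.65), the farthest from 0 of 11 settings. It was -0.83 (-1.81 to 0.01) with another seed of the thinning and -0.45 (-1.70 to 0.58) in cells with 0 UMIs of Krt10 and Krt14. Of the cells with at least 10 epithelial UMIs, 6 were Oca2+ and 55 Oca2-, and without them it was -1.23 (-2.38 to -0.27).

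Few members passed the fold limit in this split. Of the 8 members 1 (Jup) was at least 1.5-fold lower in Oca2+ cells and 2 (Cdh11 and Cdh13) at least 1.5-fold higher, all of them from few UMIs. Of the 7734 genes of at least 10 CPM, 6.39% were at least 1.5-fold lower and 5.83% higher. Cdh1, at 1.44-fold, stopped short of that limit, but was past it in the 1815 cells without a Krt10 or Krt14 UMI (log2 -0.78). Over all genes with any UMI, 29.8% were at least 1.5-fold lower and 13.8% higher. The median log2 ratio was 0.02 for the genes of at least 10 CPM, 0.05 for genes with a UMI in both groups and 0.11 for the members. The pigment genes differed more, with Tyr at 1168 and 504 CPM (log2 1.21, 1.16 to 1.27).

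**Figure D4:**
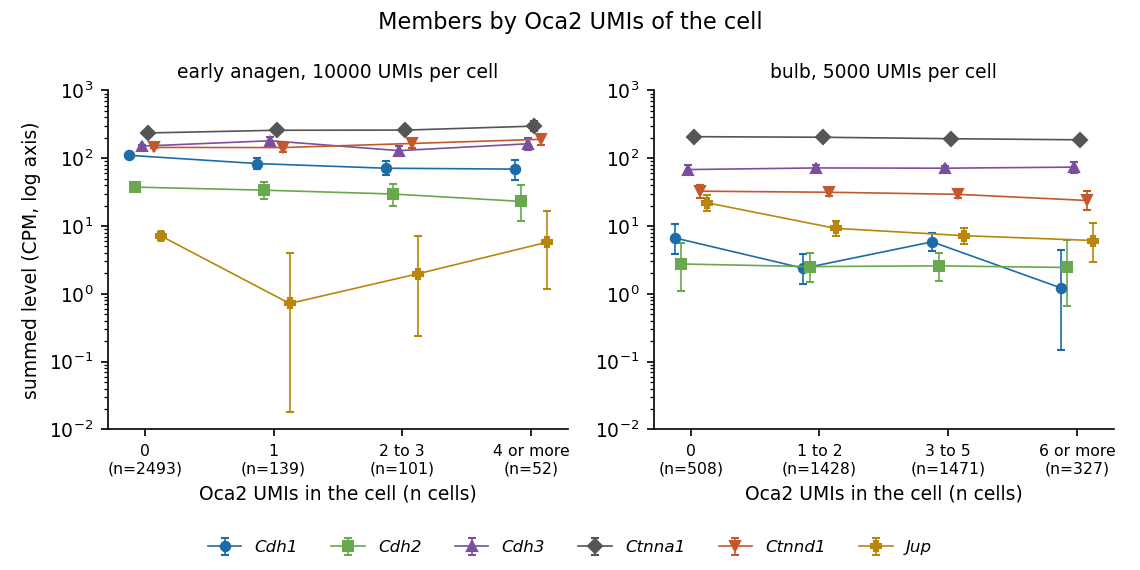
Level of 6 members (CPM, log axis, with 95% Poisson intervals) by the number of Oca2 UMIs in the cell, in early anagen at 10000 UMIs per cell (left) and bulb at 5000 UMIs per cell (right), with the number of cells under each point. In early anagen Cdh1 goes from 111 CPM without Oca2 to 69.2 with 4 or more UMIs, while Cdh3 lies between 130 and 181 CPM with no order by Oca2 and Ctnna1 between 236 and 298 CPM.

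In bulb the split was the other way round in numbers, with 3226 Oca2+ cells (86.4%, 85.3 to 87.5) and 508 Oca2- cells at 5000 UMIs. Of the 8 members, 2 (Cdh1 and Jup) were at least 1.5-fold lower in Oca2+ cells. Cdh3 was at 71.9 CPM with Oca2 and 68.1 CPM without, a log2 ratio of 0.08 (-0.15 to 0.32). Ctnna1 was at 198 and 208 CPM (log2 -0.07, -0.21 to 0.06), Ctnnd1 at 29.8 and 32.7 CPM (log2 -0.13, -0.47 to 0.22) and Cdh2 at 2.54 and 2.76 CPM (log2 -0.12, -1.29 to 1.28). Cdh13 had 0 and 1 UMIs, and Cdh11 5 and 1. Over 6883 genes 4.14% were at least 1.5-fold lower in Oca2+ cells and 1.55% higher, and over genes with any UMI these shares were 17.4% and 19.2%.

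The bulb differences of Jup and Cdh1 were also read without the cells of epithelial transcripts. Jup was at 8.0 CPM with Oca2 and 22.0 CPM in Oca2- cells (log2 -1.46, -1.93 to -0.98), and Cdh1 at 3.84 CPM from 62 UMIs and 6.69 CPM from 17 UMIs (log2 -0.80, -1.59 to 0.07). Of the 26 selected cells with at least 10 epithelial UMIs, 20 were Oca2- and 6 Oca2+, and Krt17 was at 264 CPM over all Oca2- cells and 2.17 CPM over all Oca2+ cells. Without those 26 cells, and after a new thinning, Jup was at 8.56 and 8.71 CPM (log2 -0.03, -0.70 to 0.71). Cdh1 was then at 4.03 and 3.73 CPM (log2 0.11, -0.90 to 1.30), from few UMIs, and its interval had reached past 0 with all cells too. The removal and the new thinning came together, and the cause of the change was not tested. With all cells and another seed of the thinning, Jup had a log2 ratio of -0.84 (-1.39 to -0.26).

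Most members varied little with the Krt10 and Krt14 UMIs that the selection allowed. The selection capped these same genes at 2 UMIs, so this split cannot show whether members follow keratinocyte transcripts. In early anagen Cdh1 was at 103 CPM in the 1815 cells with 0 UMIs of these keratins, 99.3 CPM in 723 cells with 1 and 102 CPM in 247 cells with 2. Cdh3 was at 144, 146 and 153 CPM and Jup at 6.18, 6.27 and 6.31 CPM in the same cells. Cdh13 was the exception, at 6.85, 4.74 and 4.16 CPM, and its level was thus lower where the keratins were higher. The selected early-anagen cells held 67.1% of the Cdh1 level of keratin-high cells, while Krt5 was at 0.082%, Krt1 at 0.038% and Dsp at 0.137%. In bulb, Cdh1 was at 4.07, 2.91 and 5.07 CPM in the 2923, 712 and 99 cells with 0, 1 and 2 keratin UMIs. Jup was at 8.96, 10.4 and 12.7 CPM (7.74 to 19.6 in the last) and Cdh3 at 67.1, 70.8 and 54.5 CPM there. A wider range was given by the 6 epithelial genes. In early anagen Jup was at 22.7 CPM (15.8 to 31.6) in the 61 cells with at least 10 such UMIs and 5.88 CPM without them. Cdh1 was at 115 CPM (99.1 to 134) and 101 CPM, and Cdh3 at 142 and 145 CPM.

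Other genes of the junction were read from lists of related genes. Of 18 other cadherins 6 were at 0 in both libraries and 1, Cdh19, which marks neural crest and Schwann lineage cells, reached 10 CPM. Cdh19 was at 32.5 CPM in early anagen and 3.04 CPM in bulb, 10.7-fold lower (log2 -3.42, -3.65 to -3.19), while the Schwann cell markers Mbp and Sox2 were at 0 to 0.0264 CPM in both. Counting all 18, with a library at 0 set at 3 counts, 4 were at least 2-fold lower in bulb and 0 higher. The shares of all genes with a UMI, 46.4% and 15.4%, are not on the same footing. They count a library at 0 as past the limit and leave out genes at 0 in both. Besides Cdh19, the lower ones were Cdh15 (3.76 and 0.555 CPM), Cdh24 (1.27 and 0.608 CPM) and Cdh4. Cdh4 had 117 UMIs in early anagen and 0 in bulb and so was at least 28.8-fold lower.

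Among 11 other catenins and armadillo proteins, 3 reached 10 CPM and 1 of them, Ctnnb1, was at least 2-fold lower in bulb. Of all genes at that level, 28.7% were lower and 16.3% higher. Over all 11, with a library at 0 set at 3 counts, 5 were lower and 1 higher. Of all genes with a UMI, 46.4% were lower and 15.4% higher, there with a library at 0 counted as past the limit. Pkp4 was at 38.4 and 22.0 CPM. Ctnnbip1, an inhibitor of beta-catenin that blocks its contact with TCF, was at 65.3 and 98.8 CPM and so was higher in bulb (log2 0.60, 0.54 to 0.65).

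Of 12 linkers between junction and actin, and nectins, at 10 CPM or more, 9 were at least 2-fold lower in bulb and 0 higher, against 28.7% and 16.3% of all genes at that level. Afdn (afadin, which ties nectins to actin) was at 57.0 CPM in early anagen and 11.6 in bulb (log2 -2.30, -2.42 to -2.18). Iqgap1, a scaffold that binds beta-catenin, was at 294 and 98.1 CPM (log2 -1.59), and the actin crosslinker Actn4 at 169 and 60.7 CPM (log2 -1.48). Lima1 (EPLIN, which binds alpha-catenin and actin) was at 231 and 223 CPM (log2 -0.05), a sign that the TMM shift of 0.31 would turn, as for Ctnna1. Of 10 desmosome genes none reached 10 CPM.

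Of the 6 regulators of E-cadherin transcription at 10 CPM or more, 4 were at least 2-fold lower in bulb and 0 higher, against the same 28.7% and 16.3% of all genes. Over the whole list of 15, with a library at 0 set at 3 counts, 8 were lower and 3 higher. Of all genes with a UMI, 46.4% were lower and 15.4% higher, there with a library at 0 counted as past the limit. The 3 higher regulators were Snai3 (0 and 23 UMIs, the latter in 10 cells), Grhl1 (1.07 and 6.21 CPM) and Ovol1 (4 and 17 UMIs). In the epithelial-high bulb cells Snai3 was at 74.6 CPM, Grhl1 at 292 CPM and Ovol1 at 90.4 CPM. The selected bulb cells were at 0.552%, 2.13% and 0.337% of these levels, beside 0.484% for Krt17 and 0.531% for Dsp. Whether these UMIs came from epithelial transcripts was not tested. Zeb2, listed here among the regulators of E-cadherin, was at 205 CPM in early anagen and 71.9 in bulb (log2 -1.51, -1.56 to -1.46). The repressor Zeb1 was at 30.3 and 5.80 CPM (log2 -2.39), Tcf4 at 178 and 87.1 CPM (log2 -1.03, past 2-fold by less than the TMM shift) and Klf4, an activator of Cdh1, at 75.4 and 37.8 CPM, short of 2-fold. Snai2, a repressor, was at 15.6 and 19.6 CPM (log2 0.33, 0.21 to 0.45). Cdh1, Zeb1 and Zeb2 were all lower in bulb, and an effect of these factors on Cdh1 was not tested. In the early-anagen Oca2 split, where Cdh1 differed, Zeb2 was at 224 CPM with Oca2 and 217 in Oca2- cells (log2 0.04, -0.08 to 0.16), Zeb1 at 23.6 and 33.5 CPM (log2 -0.50, -0.88 to -0.15) and Klf4 at 56.8 and 88.6 CPM (log2 -0.64, -0.88 to -0.41).

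Of 8 genes that cut or recycle cadherins, 3 were at least 2-fold lower and 2 higher in bulb, beside the 28.7% and 16.3% of all genes. Adam10, the protease that sheds E-cadherin and N-cadherin, was at 168 and 65.1 CPM (log2 -1.37, -1.43 to -1.32), whereas Rab11a, of the recycling endosome, was at 75.2 and 214 CPM (log2 1.51, 1.46 to 1.56) and Psen2, of the gamma-secretase complex, at 115 and 172 CPM (log2 0.58). In early anagen Adam10 was at 262 CPM with Oca2 and 156 in Oca2- cells (log2 0.75, 0.64 to 0.86), a sign opposite to that of its bulb difference.

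**Figure D5:**
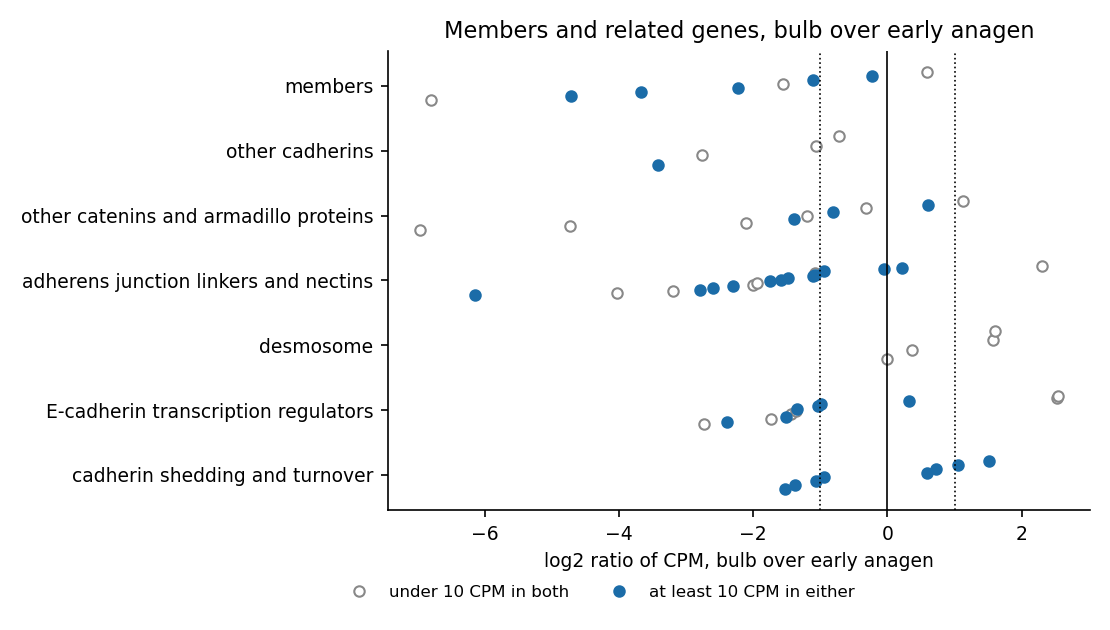
Log2 ratio of CPM, bulb over early anagen, for each member and each related gene with a UMI in both libraries, by list. Filled circles reach 10 CPM in either library, open circles do not, and dotted lines mark 2-fold. Linker, cadherin and regulator genes lie mostly left of the line at -1, while shedding and turnover genes lie on both sides of 0.

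Few genes followed a member from cell to cell. Over the 2785 early-anagen cells at 10000 UMIs, 1 gene reached a Pearson r of 0.2 with a member (log of UMIs plus 1), Tyrp1 with Ctnnd1 at 0.21, among 7170 genes with a UMI in at least 10% of cells. The cells share 1 library, and in counts this sparse so weak a correlation is no finding.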

How the data were processed

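The data were 2 single-cell RNA-seq libraries of sorted GFP+ cells, 1 for each condition. The deposited matrices held raw counts, as UMIs of each gene in each barcode. Per the labels and headers, Cell Ranger 6.0.1 had aligned the reads to mm10, called cells and counted UMIs, 1 library per condition from the pooled cells of 4 mice, with no filter for cell type. The 3′ kits read the transcript end, so levels of different genes were not ranked against each other. The 8 members, the related lists and the limits on cells were chosen with earlier results of these data known.

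UMIs were summed over the selected cells and divided by the total to give CPM. Cells were thinned without replacement to 5000 UMIs between libraries and 10000 within early anagen. Past the fold meant 2-fold between libraries and 1.5-fold for the Oca2 split, against a background of every gene reaching 10 CPM in 1 of the groups. No test was run. Named genes were the members, related genes of at least 50 CPM and genes with r of at least 0.2; Cdh19, Cdh15, Cdh24, Cdh4, Pkp4, Zeb1, Snai2, Snai3, Grhl1 and Ovol1 were named after their values were seen. Doublets were not called; the alternative without the 5% of cells with the most UMIs bears on them. Python 3.11.15, numpy 2.4.6, scipy 1.17.1, pandas 2.3.3 and edgeR 4.0.16 (TMM factors only) were used, and the code was tested on simulated counts. Alternatives changed the scaling, total, thinning, seed and each limit on cells; removal of cells with 10 or more epithelial UMIs was added after seeing the data.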

Additional observations from a re-analysis of the deposited data

How the results depend on the processing

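No paired analysis was possible because each condition was 1 library, and no replicate could be left out for the same reason. Between the libraries the count of members at least 2-fold lower in bulb was 6, or 5 with TMM scaling and 5 without the 5% of cells with the most UMIs. TMM scaling moved the median log2 ratio of the members to -1.58. Shares of cells with 2 or more cadherins depended on depth, at 90.2% and 5.97% with all UMIs. Background shares were larger over all genes with a UMI: 46.4% lower between libraries, 29.8% lower and 13.8% higher in the early-anagen split, 17.4% and 19.2% in the bulb split.

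The Oca2 counts rest on members of few UMIs. In early anagen 1 member was at least 1.5-fold lower and 2 higher. The counts became 2 and 0 with all UMIs, another seed, the mean of each cell's CPM, Krt10 and Krt14 at 0, a mitochondrial limit of 10%, Dct of at least 10 UMIs, without the 5% of cells with the most UMIs and without the cells of 10 or more epithelial UMIs. They became 2 and 1 with Oca2+ from 2 UMIs, and 1 and 0 in cells without a Mki67 or Top2a UMI. Cdh11 turned to a log2 ratio of -0.81 with all UMIs, -0.21 in cells without a Mki67 or Top2a UMI, -0.86 with another seed, -1.26 for the mean of each cell's CPM, -0.37 with the keratins at 0, -1.31 with the mitochondrial limit of 10%, -1.14 with Dct of at least 10 and -0.66 without the epithelial cells. Cdh13 turned to -0.0155 with the mitochondrial limit of 10%. In bulb 2 members were lower and 0 higher. This became 3 lower with all UMIs, the mean of each cell's CPM, the mitochondrial limit of 10% and without the 5% of cells with the most UMIs, 1 lower and 1 higher with the keratins at 0, 1 higher with another seed, 1 lower with Dct of at least 10 and 0 lower without the epithelial cells. Cdh1 in bulb turned to 0.70 with the keratins at 0, 0.15 without the 5% of cells with the most UMIs and 0.11 without the epithelial cells. The cause of these changes was not tested.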

Other observations

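The cell cycle was not part of the comparisons above, and a split by it was made after seeing the data. In early anagen, at 10000 UMIs per cell, 993 cells had a UMI of Mki67 or Top2a, which are made by dividing cells, and 1792 did not. Cdh2 was higher in the first, at 45.8 CPM from 455 UMIs against 31.8 CPM from 570 UMIs (log2 0.53, 0.35 to 0.71). Cdh1 was at 106 and 108 CPM (log2 -0.03, -0.14 to 0.08). Ctnnd1 was lower in the cells with such a UMI, at 127 and 157 CPM (log2 -0.30, -0.40 to -0.21), as were Ctnna1 at 218 and 251 CPM (log2 -0.21, -0.28 to -0.13), Cdh3 at 142 and 157 CPM (log2 -0.14, -0.24 to -0.05) and Cdh13 at 5.54 and 8.15 CPM from 55 and 146 UMIs (log2 -0.56, -1.03 to -0.10). In bulb 53 of 3734 cells had such a UMI, and Cdh1 and Cdh2 had 0 UMIs in them at 5000 UMIs per cell. The other 3681 bulb cells had only 79 UMIs of Cdh1 and 48 of Cdh2, so 0 in 53 cells decides nothing.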
